A study of Drosophila melanogaster with 26 samples.

Results

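Whole larvae of *Drosophila melanogaster* that lack the Estrogen-Related Receptor (dERR) were compared with *w1118* control larvae in normoxia. The comparison rests on 6 of the 26 arrays of the study, 3 of the mutants and 3 of the controls, chosen by genotype and oxygen level from the sample labels. The mutants were *dERR1/dERR2*, that is, they carried 2 different mutant alleles of the gene, and the controls were *w1118*, a white-eyed laboratory stock. All other arrays came from *sima07607* mutants, which lack the α subunit of the Drosophila hypoxia-inducible factor (dHIFα), from *sima,dERR* double-mutants, or from larvae of any of the 4 genotypes held in 4% oxygen. The double-mutants were made by recombining *sima07607* with each of the 2 *dERR* alleles. The larvae were in the late-L3 stage, between 10 and 4 h from pupariation, and were kept for a further 6 h at 25°C. A replicate held at least 10 of them. Animals homozygous for *sima07607* were sorted from a GFP-marked balancer at mid-L2, and how *dERR1/dERR2* larvae were recognized is not stated separately in the sources used here. The controls were a stock of their own, so a difference between the genotypes holds the effect of *dERR* together with any other difference between these stocks, and these cannot be told apart within the 6 arrays. RNA came from whole animals, in which fewer cells of a type and less RNA per cell cannot be told apart.

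dERR is an orphan nuclear receptor, a transcription factor of the family that includes the steroid receptors, and it is the only member of the ERR class in the fly. In mammals, ERR proteins act with PGC-1 coactivators on genes of mitochondrial respiration and fatty acid oxidation. In the fly, dERR is known for switching on the genes of glycolysis and related sugar metabolism during embryogenesis, a program that larvae then use while they grow. Glycolysis splits glucose into pyruvate, which either enters the mitochondria or is reduced to lactate. Glycolytic genes are also known targets of HIF in many animals. The normoxic comparison asks which transcripts differ without dERR before any hypoxic challenge.

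The values are log2 intensities of probe sets, sets of short oligonucleotides that each report a transcript, and a difference of 1 on this scale is a 2-fold change. All differences are mutant minus control, with the standard error from a limma model of the 26 arrays in 8 groups. A probe set was called changed if it differed 1.5-fold or more and if its p, adjusted after Benjamini and Hochberg for all 18769 probe sets, was under 0.01. By this rule 429 probe sets were called, or 2.29% of those tested, of which 278 (1.48%) were higher and 151 (0.805%) were lower in *dERR* mutants. The called rises had a median of 1.38 and the called falls one of -1.05. Centring each array on its median moved the median of all probe sets from 0.02 to 0.12 and gave 292 higher and 82 lower probe sets. With each gene represented by its brightest probe set, 344 of 11982 genes were called (2.87%), 229 higher (1.91%) and 115 lower (0.96%), and the median difference over all genes was -0.04. In every called probe set the 3 mutant arrays lay outside the range of the 3 control arrays, but so did they in 40.9% of all probe sets, so separation of the groups is a weak criterion here.

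The *dERR* arrays were less alike than the controls. The median SD of a probe set was 0.18 among the former and 0.11 among the latter. Mutant replicate 2 differed from mutant replicates 1 and 3 by 0.34 on average, whereas these differed from each other by 0.22. On the first principal component of the 6 arrays, which held 72.8% of the variance, replicate 2 scored -71.9, replicates 1 and 3 scored -22.1 and -20.9, and the controls scored 31.1 to 48.9. Without replicate 2 the number of calls fell to 138, of which 80 were higher and 58 lower. It also fell by more than 1.5 times without control replicate 1 (215 calls), 2 (150) or 3 (193).

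The *dERR* transcript itself was measured by 1 probe set. It read 4.98, 4.93 and 4.75 in the 3 controls and 4.38, 4.64 and 4.65 in the 3 mutants. Every mutant array was below every control array, but the difference of -0.33 (SE 0.14, adjusted p = 0.14) did not pass the test, and all values lay below the array medians of 5.33 to 5.53. The alleles' effect on the part of the transcript that this probe set reads is not given in the sources used here, so this value does not check the genotype.

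Most transcripts of glycolysis were lower in *dERR* mutants. Of 10 glycolytic genes with a probe set of their own in the platform annotation, 6 fell and 0 rose, against 0.96% and 1.91% of all genes, and their median difference was -0.98, against -0.04 for all genes. At an unadjusted p under 0.05, which 26.9% of all probe sets reached, 7 were lower and 1, *Hex-C*, was higher. The genes that fell encode consecutive steps from glucose 6-phosphate to phosphoenolpyruvate, with the exceptions of aldolase and phosphoglycerate mutase. *Pgi*, which encodes phosphoglucose isomerase, read 10.14, 9.93 and 10.17 in the controls and 8.94, 8.90 and 8.31 in the mutants, a difference of -1.36 (SE 0.24, adjusted p = 0.00177). *Pfk* encodes phosphofructokinase, which catalyzes the committed step of the pathway. Its values were 8.54, 8.32 and 8.54 in the controls and 7.62, 7.11 and 7.06 in the mutants, and the difference was -1.20 (SE 0.22, adjusted p = 0.0019). *Tpi*, the gene for triose phosphate isomerase, had the largest fall of the list. It read 11.60, 11.36 and 11.57 in the controls and 10.07, 9.91 and 9.36 in the mutants, a difference of -1.74 (SE 0.34, adjusted p = 0.00421) or 3.33-fold.

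The falls continued through the lower part of the pathway, where ATP is made. *Pgk*, which encodes phosphoglycerate kinase, read 9.66, 9.18 and 9.65 in the controls and 8.73, 8.58 and 8.05 in the mutants, with a difference of -1.04 (SE 0.18, adjusted p = 0.00167). *Eno*, the enolase gene, read 11.39, 11.19 and 11.55 in the controls and 10.39, 10.77 and 10.25 in the mutants, a difference of -0.90 (SE 0.14, adjusted p = 7.26e-04). *Gapdh1*, a gene for glyceraldehyde 3-phosphate dehydrogenase, read 11.81, 11.68 and 11.90 in the controls and 10.89, 11.07 and 10.69 in the mutants and differed by -0.91 (SE 0.20, adjusted p = 0.00762). Its near-identical copy *Gapdh2* is not listed in the platform annotation, and 2 probe sets were named for it through a supplementary table of the study. They fell by 1.45 and 1.40, from 11.61, 11.17 and 11.63 in the controls to 10.19, 10.21 and 9.67 in the mutants for the first of them (adjusted p = 7.30e-05). In all 6 called genes of the list and in *Gapdh2*, every mutant array was below every control array. Mutant replicate 3 was the lowest array in each of them, and control replicate 2 was the lowest control. How far the probe sets of *Gapdh1* and *Gapdh2* read each other's transcript was not checked.

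The remaining steps did not pass the test. *Ald1*, which encodes aldolase, read 11.35, 11.17 and 11.50 in the controls and 10.24, 10.60 and 9.56 in the mutants, a difference of -1.20 (adjusted p = 0.0227) with groups that did not overlap, and its dimmer probe set differed by -0.43 (adjusted p = 0.0842). *Pglym78*, a phosphoglycerate mutase gene, differed by -0.37 (adjusted p = 0.188) and its groups overlapped. The genes at the entry and exit of the pathway were also not called. The hexokinase gene *Hex-A* differed by 0.07 (adjusted p = 0.869), the other hexokinase gene *Hex-C* by 1.41 (adjusted p = 0.0802), and the pyruvate kinase gene *PyK*, named through the supplementary table, by 0.07 (adjusted p = 0.791). The 3 *Hex-C* values in the mutants were spread widely, at 4.74, 7.33 and 5.17, with replicate 2 the highest. *Ldh*, the gene for lactate dehydrogenase and likewise named through that table, read 8.74, 8.11 and 8.95 in the controls and 6.85, 7.07 and 7.65 in the mutants. The difference of -1.41 (SE 0.34, adjusted p = 0.014) was as large as that of *Pgi*, but replicates varied more and it missed the adjusted p limit.

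**Figure D1:**
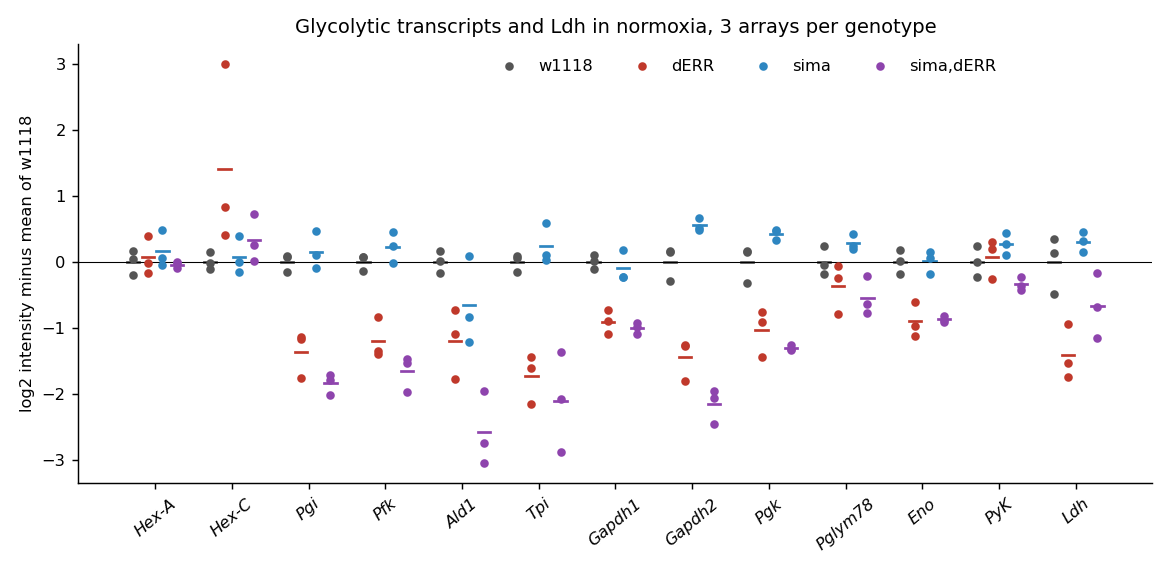
Log2 intensity of 12 glycolytic transcripts and *Ldh* in normoxia, each minus its mean in *w1118*, for the 3 arrays of each of 4 genotypes (points) and their mean (bars). From *Pgi* to *Pgk* and for *Eno* the *dERR* arrays lie below all *w1118* arrays, while those of *Hex-A* and *PyK* lie among them. The *sima,dERR* arrays are low for the same genes and the *sima* arrays are mostly near 0.

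The 6 calls depended on the estimate of the spread and on single libraries, while the direction did not. With the 6 arrays fitted alone, 0 of the 10 genes passed in limma, the smallest adjusted p was 0.0121, and 8 were still lower. SAM, a permutation-based test on the same 6 arrays, called 0 of them. Leaving out 1 array left 1 to 5 calls. They were *Eno* alone without control replicate 1 or 3, *Pgi*, *Pgk* and *Eno* without mutant replicate 2, and *Pfk*, *Pgk* and *Eno* without mutant replicate 3. The median of the 10 genes stayed between -1.10 and -0.83.

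A comparison of *sima,dERR* double-mutants with *sima* mutants in normoxia asks about loss of *dERR* in arrays that the first comparison does not use. The same 2 *dERR* alleles were used in both comparisons. Any difference linked to these alleles therefore cannot be told apart from loss of *dERR* in either of them. In that comparison 190 probe sets were called, or 1.01%. There, *Tpi* fell by 2.35, *Pgi* by 2.0, *Pfk* by 1.89, *Pgk* by 1.74 and *Eno* by 0.88, with adjusted p values from 4.74e-06 to 0.00107. The *Gapdh2* probe sets fell by 2.71 and 2.62. *Ald1* differed by -1.93 (adjusted p = 0.00102) and was called, *Gapdh1* differed by -0.91 (adjusted p = 0.0132) and was not, and *Ldh* differed by -0.97 (adjusted p = 0.165). The *Pfk* values were 8.92, 8.45 and 8.71 in *sima* mutants and 6.49, 6.99 and 6.93 in double-mutants, which places the *sima* arrays near the controls and the double-mutant arrays at or below the *dERR* arrays. The differences between *sima* mutants and *w1118*, which share the control arrays of the first comparison, were 0.24 for *Tpi*, 0.15 for *Pgi*, 0.23 for *Pfk*, 0.43 for *Pgk* and 0.00 for *Eno*.

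In hypoxia, which involved no array of the normoxic comparison, 1157 probe sets were called between *dERR* mutants and *w1118* (6.16%). The glycolytic differences were -2.34 for *Tpi*, -2.64 for *Pfk*, -2.71 for *Pgi*, -1.81 for *Pgk*, -1.40 for *Eno* and -0.88 for *Gapdh1* there, all called. None of these 6 genes passed the test of the difference between the oxygen levels. The smallest p was that of *Pfk*, with a difference between the comparisons of -1.44 (SE 0.29, adjusted p = 0.0278), and *Pgi* gave -1.35 (SE 0.33, adjusted p = 0.0763).

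Of the 429 probe sets called in normoxia, 36 were called the same way when *dERR* was lost in a *sima* background, 13 higher and 23 lower. They made up 8.39% of the calls of the first comparison and 18.9% of those of the other, and 9 probe sets were called in opposite directions. The 36 represent 34 genes. Of these probe sets, 32 were also called the same way in hypoxia. Without control replicate 2 or 3 of the first comparison, 22 or 21 probe sets were called in both. Over all calls in normoxia, 97.2% had the same sign in hypoxia, against 71.7% of all probe sets, and 57.1% had the same sign in the *sima* background, against 51.5%. The hypoxic comparison used the same 2 genotypes as the normoxic one, so other differences between these stocks can recur in it. The 5 hypoxic control arrays had the largest median SD of the 8 groups, 0.21.

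Beside the glycolytic genes, the shared falls included 2 further enzymes of sugar metabolism. *Pgm1* encodes phosphoglucomutase, which joins glycogen and glucose 6-phosphate. It read 9.73, 9.22 and 9.59 in the controls and 8.13, 7.70 and 6.90 in the mutants, a difference of -1.94 (SE 0.28, adjusted p = 2.65e-04), and -2.0 in the *sima* background. *Pepck2* encodes a phosphoenolpyruvate carboxykinase, an enzyme of glucose synthesis. It read 10.08, 11.05 and 10.51 in the controls and 8.77, 7.28 and 8.35 in the mutants, a difference of -2.41 (SE 0.46, adjusted p = 0.00302), and -2.77 in the *sima* background. The other measured genes of these lists were not called. That left 1 of 4 genes of gluconeogenesis and 1 of 9 of glycogen and trehalose metabolism as falls, with list medians of -0.36 and 0.06. Over all genes, 0.96% were called lower. *Pepck2* was lowest in mutant replicate 2 and was not called without it, whereas *Pgm1* was.

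The largest shared falls lay outside sugar metabolism. *LysX* encodes a lysozyme, an enzyme that cuts bacterial cell walls. It read 11.48, 11.36 and 10.96 in the controls and 5.83, 6.12 and 7.08 in the mutants, a 30.3-fold difference (adjusted p = 4.53e-06), and the difference in the *sima* background was -5.39. *Eip63E*, which encodes a cyclin-dependent kinase, had a small spread. It read 8.86, 8.99 and 8.63 in the controls and 6.63, 6.15 and 6.41 in the mutants, with a difference of -2.43 (SE 0.19, adjusted p = 1.40e-07) and of -3.19 in the *sima* background. *mthl8* encodes a receptor of the Methuselah family. Its brighter probe set read 7.09, 6.99 and 7.02 in the controls and 4.48, 4.33 and 3.28 in the mutants, with a difference of -3.00 (SE 0.37, adjusted p = 4.90e-05) and of -3.72 in the *sima* background. Without a known role stated here, *CG5966* fell by 3.42 and 5.08 in the 2 comparisons, *CG13405* by 3.20 and 2.25, and *CG6870* by 2.73 and 3.75. For *CG5966* and *CG6870*, mutant replicate 1 lay nearer the controls, at 8.57 and 8.95, than replicates 2 and 3.

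The largest shared rise was that of *CG18265*. It read 3.26, 3.16 and 3.33 in the controls and 7.53, 7.48 and 7.2 in the mutants, a 17.8-fold difference (adjusted p = 2.29e-11). It read 3.38, 3.13 and 3.51 in *sima* mutants and 7.85, 7.83 and 7.61 in double-mutants, so that all arrays without dERR were high and all arrays with dERR were low. *CG1208* differed by 3.94 and 3.34, *CG33093* by 2.98 and 2.47, and *ItgaPS4*, which encodes an integrin α subunit, by 2.75 and 3.18. *PGRP-SA* encodes a recognition protein for bacterial peptidoglycan upstream of the Toll receptor. It was named through the supplementary table and differed by 1.78 and 1.73. *Ctr9*, which encodes a subunit of the Paf1 transcription elongation complex, differed by 0.94 and 1.25.

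**Figure D2:**
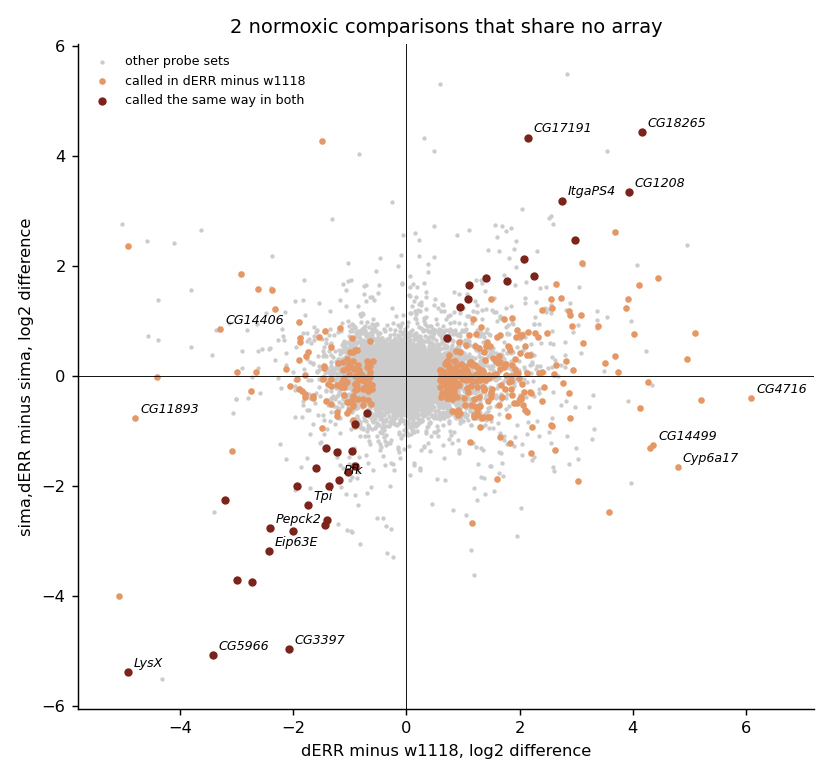
Log2 difference of each of the 18769 probe sets between *dERR* mutants and *w1118* (x axis) and between *sima,dERR* double-mutants and *sima* mutants (y axis), both in normoxia and with no array in common. Orange points are the probe sets called in the first comparison and dark points the 36 called the same way in both, which run from *LysX* at lower left to *CG18265* at upper right. Many orange points lie along the horizontal axis, with differences near 0 in the *sima* background.

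Of the 12 largest rises, *CG18265* and *CG1208* were called in the *sima* background and the others were not. *CG4716*, whose product has no role stated here, had the largest rise of all, from 4.55, 4.26 and 5.43 in the controls to 10.56, 11.18 and 10.75 in the mutants, a difference of 6.09 (SE 0.85, adjusted p = 2.11e-04), and its other probe set rose by 5.21. It was also high in *sima* mutants, at 10.05, 10.11 and 10.10, and in double-mutants, at 8.78, 10.20 and 10.04, so its difference on loss of *dERR* in the *sima* background was -0.41 (adjusted p = 0.919). *Cyp6a17*, a cytochrome P450 gene, had the same form. It read 4.00, 3.82 and 3.21 in the controls, 8.47, 8.81 and 8.12 in *dERR* mutants, 8.94, 8.57 and 8.26 in *sima* mutants and 6.34, 7.16 and 7.31 in double-mutants. Its difference was 4.79 (SE 0.36, adjusted p = 8.19e-08) against *w1118* and -1.66 (adjusted p = 0.0132) in the *sima* background. In these genes the control stock was low and each of the 3 mutant stocks was high.

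*Rala*, which encodes a small GTPase and was named through the supplementary table, followed the same order. It read 4.76, 5.04 and 4.86 in the controls, 9.21, 9.02 and 9.28 in *dERR* mutants, 9.50, 9.57 and 9.53 in *sima* mutants and 9.58, 9.38 and 9.34 in double-mutants. *CG14499* differed from *w1118* by 4.35 in *dERR* mutants, 4.63 in *sima* mutants and 3.37 in double-mutants, comparisons that share the 3 control arrays. *CG5550* differed by 4.30, 3.54 and 2.23. *RFeSP* encodes the Rieske iron-sulfur protein of respiratory complex III, and its 2 probe sets disagreed. The dimmer differed by 4.02, 3.01 and 3.78, whereas the brighter differed by 0.91 (adjusted p = 0.0344) in *dERR* mutants and was not called, so that *RFeSP* cannot be described as a changed gene from these data.

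Among the falls, *Alp7* and *Alp8*, which encode alkaline phosphatases, and *Nepl20*, of the neprilysin-like peptidases, were also lower in the other mutant stocks. *Alp7* read 6.08, 6.60 and 6.60 in the controls, 3.46, 3.27 and 3.57 in *dERR* mutants, 3.59, 3.32 and 3.27 in *sima* mutants and 3.87, 3.25 and 3.27 in double-mutants. *Nepl20* differed from *w1118* by -2.66, -3.19 and -3.12 in the same order of genotypes, and *Alp8* by -3.08, -1.72 and -3.08. In contrast, *CG11893* was low in the *dERR* mutants, at 4.78, 3.33 and 2.87, against 9.01, 8.11 and 8.28 in the controls and 7.38, 9.06 and 8.12 in double-mutants. Its interaction of *dERR* with *sima* did not pass the test. *CG14406* fell by 3.30 in *dERR* mutants, and its differences in the other 2 mutants were -1.41 and -0.57.

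**Figure D3:**
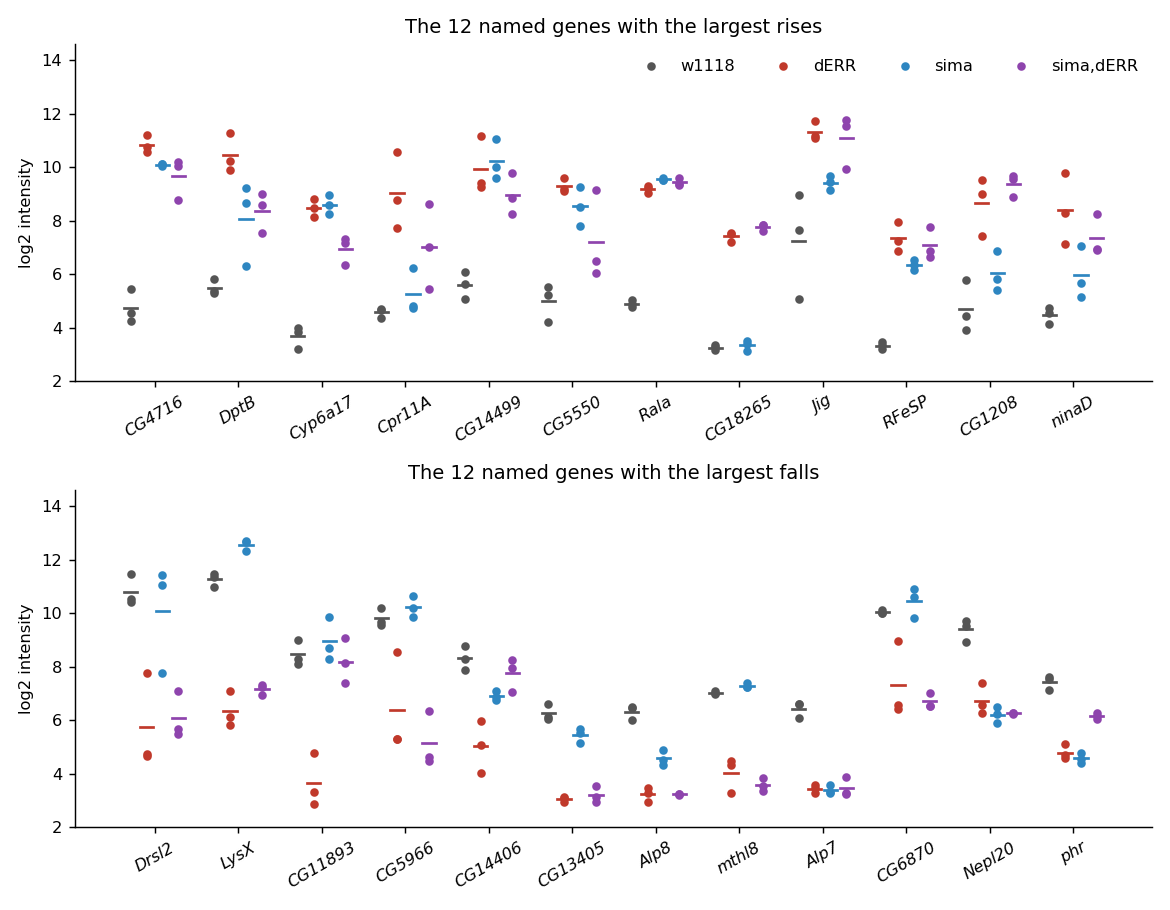
Log2 intensity of the 12 named genes with the largest called rises (top) and falls (bottom) in *dERR* mutants, for the 3 normoxic arrays of each of 4 genotypes (points) and their mean (bars). *CG18265* and *LysX* separate the genotypes with dERR from those without it, whereas *CG4716*, *Cyp6a17* and *Alp7* separate *w1118* from the 3 mutant stocks.

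Most measured genes of the amylase and maltase list were higher in *dERR* mutants. The amylase genes *Amy-p* and *Amy-d* had no probe set of their own and are not among them. Of the 12 measured genes, 11 had positive differences and 4 rose, against 1.91% of all genes called higher. The median difference was 1.68, against -0.04 over all genes. *Mal-A1*, a maltase gene of the gut, read 6.86, 7.15 and 7.87 in the controls and 9.44, 9.75 and 10.49 in the mutants, a difference of 2.60 (SE 0.39, adjusted p = 4.44e-04). *Mal-A7* differed by 2.55 (SE 0.51, adjusted p = 0.00443) and *Mal-B1* by 1.26 (SE 0.21, adjusted p = 8.73e-04). *tobi* encodes an α-glucosidase known as a target of brain insulin signals. It read 7.41, 7.21 and 6.92 in the controls and 9.02, 9.37 and 9.25 in the mutants and differed by 2.03 (SE 0.36, adjusted p = 0.00185). In the *sima* background the median of the list was 0.41 and none of these 4 genes was called. Against the same *w1118* arrays, the median of the list was 0.54 in *sima* mutants and 1.30 in double-mutants. Without mutant replicate 2, *Mal-A1* and *Mal-B1* were still called. Trypsin and Jonah protease markers of the midgut were higher by a median of 0.42, with 0 of 5 called by limma, 1 at an unadjusted p under 0.05 and 0 by SAM. Their summed intensity was 32012 to 41939 in the controls and 43641 to 53711 in the mutants, and the part of the midgut in the rise of the maltases was not tested.

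The main genes of fatty acid synthesis rose. *FASN1*, the fatty acid synthase gene, read 9.25, 10.31 and 10.14 in the controls and 11.70, 13 and 12.48 in the mutants, a difference of 2.49 (SE 0.39, adjusted p = 6.77e-04). *ACC* encodes acetyl-CoA carboxylase, which makes the precursor that the synthase uses. It read 7.29, 7.45 and 7.59 in the controls and 8.63, 10.59 and 9.49 in the mutants, with a difference of 2.13 (SE 0.34, adjusted p = 7.26e-04). *SREBP*, the transcription factor that drives lipid synthesis genes, read 8.27, 8.35 and 8.34 in the controls and 9.17, 9.20 and 9.28 in the mutants, with a difference of 0.89 (SE 0.10, adjusted p = 1.69e-05) in the normoxic arrays. In the opposite direction, *whd* fell. It encodes a carnitine palmitoyltransferase, which brings fatty acids into mitochondria for oxidation, and read 10.44, 10.16 and 10.27 in the controls and 9.76, 8.82 and 9.46 in the mutants, a difference of -0.94 (SE 0.19, adjusted p = 0.00532). The list of 16 lipid genes thus held 3 rises and 1 fall, against 1.91% and 0.96% of all genes, with a median of 0.37. *FASN1* and *ACC* were highest in mutant replicate 2, and all 3 rises were also called without it, whereas *whd* was not. In the *sima* background the differences were 0.77, 0.38, 0.09 and -0.81 for the 4 genes in this order, none called.

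Mitochondrial genes were mostly higher, with few calls, where 1.91% of all genes were called higher. Of 16 genes of the TCA cycle 13 were higher and 1 was called, with a median of 0.63. The called gene was *SdhB*, for the iron-sulfur subunit of succinate dehydrogenase, which read 8.84, 8.75 and 8.80 in the controls and 9.55, 10.34 and 9.79 in the mutants, a difference of 1.10 (SE 0.20, adjusted p = 0.00213). Of 68 genes of oxidative phosphorylation, 49 were higher and 1 was called, with a median of 0.53. This was *ND-15*, a complex I subunit gene, at 0.66 (SE 0.14, adjusted p = 0.00595). *mRpS28* was the only call among 69 mitochondrial ribosomal protein genes, whose median was 0.15. None of these 3 calls was made without mutant replicate 2. In the *sima* background the medians of the 3 lists were 0.04, 0.13 and -0.13, with 0 rises and 1 fall, of a TCA cycle gene. In hypoxia, their medians in *dERR* mutants against *w1118* were 0.50, 0.40 and 0.11. At an unadjusted p under 0.05, 45 genes of oxidative phosphorylation were higher and 2 were lower, against 26.9% of all probe sets in either direction. The groups did not overlap for 60 of the 68 genes, against 40.9% of all probe sets. The glycerol phosphate oxidase gene *Gpo1*, which passes electrons from glycerol 3-phosphate to the respiratory chain and was named through the supplementary table, read 4.88, 5.46 and 4.99 in the controls and 7.05, 8.14 and 6.44 in the mutants and rose by 2.10 (SE 0.35, adjusted p = 9.00e-04). The cytosolic partner gene *Gpdh1* differed by 0.73 (adjusted p = 0.198). The pentose phosphate pathway, which branches off at glucose 6-phosphate, had 0 of 5 genes called by limma, 1 at an unadjusted p under 0.05 and 0 by SAM, with differences between -0.33 for *Rpi* and 0.27 for *CG8036*. The dehydrogenase genes *Zw* and *Pgd* of this pathway had no probe set of their own and are not among the 5.

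Muscle transcripts moved with the mitochondrial ones. All 5 measured muscle markers were higher and 1 was called, against 1.91% of all genes called higher, with a median of 1.57. *Mlc2*, for a myosin light chain, read 6.65, 6.11 and 6.84 in the controls and 9.21, 10.27 and 8.80 in the mutants, a difference of 2.89 (SE 0.63, adjusted p = 0.00775), and was not called without mutant replicate 2. The summed intensity of the 5 markers was 5251 to 7690 in the controls and 15932 to 28855 in the mutants, with the highest value in replicate 2. Replicate 2 also had the highest mean of the TCA and oxidative phosphorylation lists. The part of muscle in these differences was not tested. In the *sima* background the median of the 5 muscle markers was 0.31, with 0 called. In hypoxia their median in *dERR* mutants against *w1118* was 1.46, with 1 rise. Of the other tissues, 9 testis genes were all lower, by 0.61 to 0.91, with 0 called by limma, 0 at an unadjusted p under 0.05 and 0 by SAM. Their summed intensity was 7212 to 9632 in the controls and 3459 to 6407 in the mutants, again most extreme in replicate 2. In hypoxia the median difference of the testis genes between *dERR* mutants and *w1118* was 0.18. In normoxia it was -0.76 in *dERR* mutants, -1.38 in *sima* mutants and -1.13 in double-mutants, each against the same *w1118* arrays. The 7 hemocyte markers had a median of 0.03, with *PPO1* and *PPO2* at 2.64 and 2.52, not called, and summed to 1559 to 1691 in the controls and 2069 to 3025 in the mutants. The fat body, salivary gland and neuron markers had medians of -0.09, 0.00 and 0.05, and their summed intensities overlapped between the groups.

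**Figure D4:**
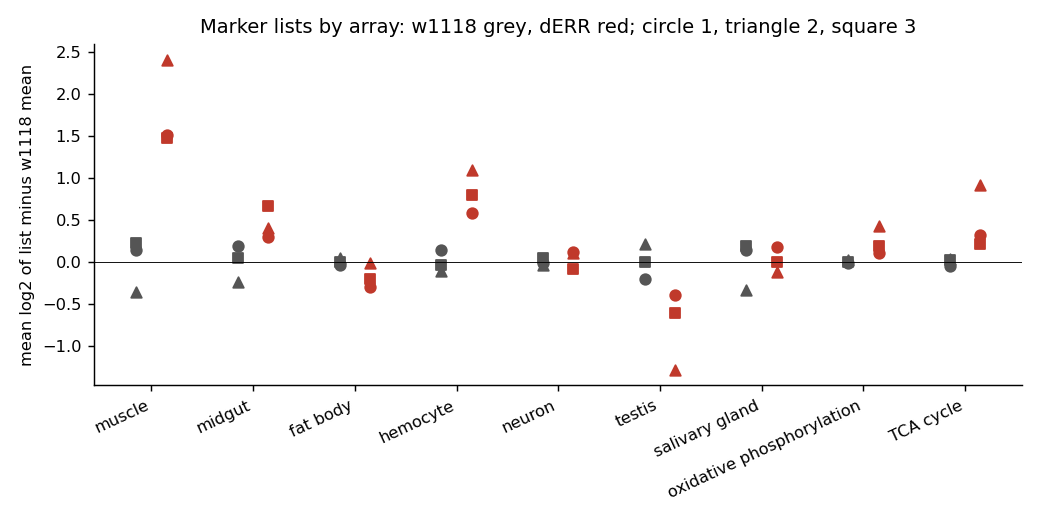
Mean log2 intensity of the genes of 7 tissue lists and 2 mitochondrial lists on each normoxic array, minus the mean of the 3 *w1118* arrays. Grey symbols are *w1118* and red symbols *dERR* mutants, with a circle, triangle and square for replicates 1, 2 and 3. The muscle mean is above all controls in each mutant array, and mutant replicate 2 is the highest for muscle, hemocytes and the TCA cycle and the lowest for testis.

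Some genes of detoxification rose. Over all genes, 1.91% were called higher. Of 80 genes for cytochrome P450 enzymes, which oxidize toxins and hormones, 6 passed the test, all of them higher, and the median was 0.35. After *Cyp6a17* came *Cyp6a8* at 3.03 (adjusted p = 2.11e-04), *Cyp28a5* at 2.55 (adjusted p = 0.00404), *Cyp9b1* at 2.35 (adjusted p = 1.75e-04) and *Cyp9c1* at 1.65 (adjusted p = 0.00413). *Cyp9b1* read 4.53, 4.39 and 4.27 in the controls and 6.46, 7.44 and 6.35 in the mutants. Compared with the same controls, *sima* mutants differed by 2.78, 3.21, 2.06 and 1.56 for these 4 genes. *Cyp6a22* differed by 1.29 (adjusted p = 0.0309) and was not called. Of 34 glutathione S-transferase genes, whose products join glutathione to toxic compounds, 6 rose, with a median of 0.37. *GstD4* read 5.15, 5.33 and 5.49 in the controls and 8.49, 9.42 and 7.35 in the mutants, a difference of 3.10 (SE 0.68, adjusted p = 0.00838). *GstD7* differed by 2.89, *GstE6* by 2.39, *GstD5* by 2.18 and *GstE9* by 2.0. Of 35 UDP-glycosyltransferase genes, 1 rose, against 1.91% of all genes. This was *Ugt35B1*, at 2.87 (adjusted p = 0.00164). Without mutant replicate 2, 3 P450 genes and 2 glutathione S-transferase genes were called, and *Ugt35B1* was not. The median of the UDP-glycosyltransferase list was 0.16. Against the same controls, the medians of the P450, glutathione S-transferase and UDP-glycosyltransferase lists were 0.19, 0.30 and 0.29 in *sima* mutants. In double-mutants they were 0.23, 0.32 and 0.31.

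Immune peptides changed in both directions. Of 12 antimicrobial peptide genes, 2 rose and 1 fell, against 1.91% and 0.96% of all genes. *DptB*, the gene for Diptericin B, read 5.38, 5.80 and 5.30 in the controls and 10.21, 9.89 and 11.27 in the mutants, a 31.2-fold difference (adjusted p = 3.73e-04). *AttD*, for an attacin, read 4.67, 4.50 and 5.12 in the controls and 8.27, 6.82 and 8.58 in the mutants and differed by 3.12 (SE 0.54, adjusted p = 0.00135). *Drsl2*, for a drosomycin-like peptide, had the largest fall of all named genes. It read 10.53, 11.46 and 10.43 in the controls and 7.78, 4.66 and 4.76 in the mutants, a difference of -5.07 (SE 0.87, adjusted p = 0.00125). *Drsl2* was not called without mutant replicate 2, while *DptB* and *AttD* were. In the *sima* background *Drsl2* differed by -4.01 (adjusted p = 0.0129) and was not called. The median of the 12 genes was 0.35 in *dERR* mutants, 0.50 in *sima* mutants and 0.39 in double-mutants, each against the same *w1118* arrays. Among 8 Bomanin genes, which encode short peptides induced through Toll, 1 rose, *BomBc3* at 1.36 (adjusted p = 0.00711), which was not called without mutant replicate 2. The median of these genes was 1.85, with 7 of 8 positive, and -1.18 in hypoxia, where 1 rose and 2 fell.

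Genes of molting and of the ecdysone response were also measured, because the larvae were close to pupariation. Of 104 cuticle protein genes 3 rose and 2 fell, against 1.91% and 0.96% of all genes, with a median of 0.17. Of these 5 genes *Cpr49Ab* alone was still called without mutant replicate 2, with 1 rise of another gene. *Cpr11A* rose from 4.64, 4.35 and 4.70 to 7.71, 10.56 and 8.78 and *Cpr65Au* from 5.46, 4.16 and 5.93 to 7.39, 10.08 and 9.10, in both cases with the highest value in mutant replicate 2. *Lcp65Ad* differed by 1.62, *Cpr49Ab* by -1.88 and *Cpr65Ec* by -1.11. Of 15 genes of the ecdysone response 14 were lower, with a median of -0.77, and 1 was called. The called gene was *Eip63E*, the kinase gene given above. *Eip74EF* and *Eip75B* had no probe set of their own in the platform annotation and are not among the 15 genes. The other 14 of the 15 were not called. They included *ImpE1* at -2.27, *ImpE2* at -3.02, *Eip78C* at -2.37 and *Eip93F* at -1.96, with adjusted p values from 0.0498 to 0.110. *ftz-f1*, which encodes a nuclear receptor of the prepupa, was the single member with a positive difference, 1.53 (adjusted p = 0.0115). A probe set named for *Eip75B*, an ecdysone-induced nuclear receptor gene, through the supplementary table fell by 1.33 (adjusted p = 0.00439), which meets the rule for a call. The other probe set given for *Eip75B* differed by -0.85 (adjusted p = 0.0452). *Ddc*, a dopa decarboxylase gene used in cuticle tanning, read 12, 12.04 and 11.79 in the controls and 9.20, 6.91 and 10.98 in the mutants, with a difference of -2.91 (adjusted p = 0.0404) and the lowest value in replicate 2. Whether the mutants differed from the controls in their progress to pupariation was not tested.

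The HIF pathway showed no call in normoxia. The *sima* transcript read 7.88, 7.63 and 7.91 in the controls and 7.82, 7.72 and 8.0 in *dERR* mutants, a difference of 0.04 (adjusted p = 0.905). *tgo*, for the dHIFβ partner, differed by -0.35 (adjusted p = 0.173) and *Hph*, for the prolyl hydroxylase fatiga, by -0.16 (adjusted p = 0.598) in its brighter probe set. *Vhl*, for the ligase subunit that marks dHIFα for degradation, differed by -0.21 (adjusted p = 0.389). Of the 7 genes of this list, 0 were called by limma, 3 had an unadjusted p under 0.05 (26.9% of all probe sets did), all of them lower, and 0 were called by SAM. *Thor*, which encodes the translation inhibitor 4E-BP and was named through the supplementary table, read 12.98, 12.96 and 13.06 in the controls and 12.92, 12.12 and 12.55 in the mutants, a difference of -0.47 (adjusted p = 0.0265).

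Of 40 lists with 697 different genes, 24 had no call by limma. These 24 lists held 206 genes, counting repeats, of which 61 had an unadjusted p under 0.05, a share near the 26.9% of all probe sets, and 1 was called by SAM. They included the cytosolic ribosomal proteins (median -0.05), nucleolus (0.05), DNA replication licensing (0.20), tanning enzymes (-1.05), aminoacyl-tRNA synthetases (0.22), heme synthesis (-0.09), heat shock (-0.66) and ecdysone synthesis (-0.59). *Nmdmc*, an enzyme gene of one-carbon metabolism, had the smallest p of its list and differed by -1.83 (adjusted p = 0.0327).

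**Figure D5:**
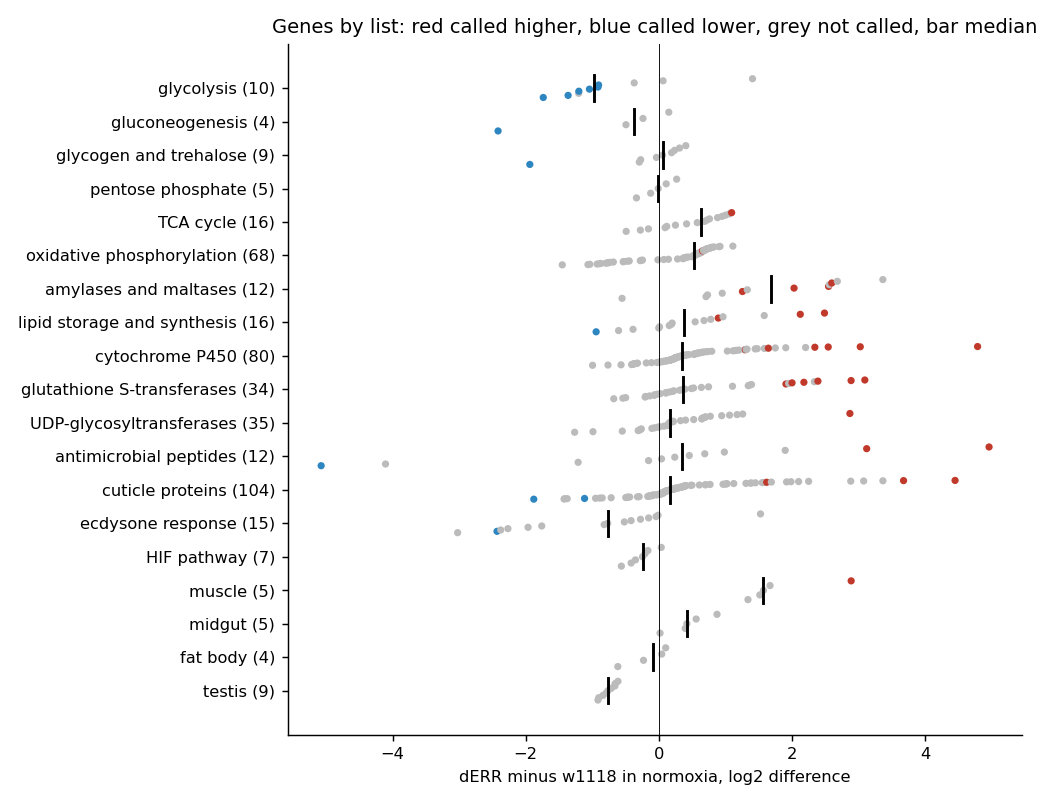
Log2 difference between *dERR* mutants and *w1118* in normoxia for each gene of 19 lists, with the number of genes measured in parentheses. Red points were called higher, blue points lower and grey points not called, and bars give the list median. The glycolysis median is -0.98 and that of the amylases and maltases 1.68.

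The position of the called genes was described because *dERR* and *sima* both lie on chromosome 3 and the mutants carry selected chromosomes. By the RefSeq annotation of assembly Release 6, called genes made up 3.13% of those on arm 2L, 4.00% on 2R, 2.60% on 3L, 2.32% on 3R and 2.19% on X. On the small chromosome 4 they were 7 of 65 genes, or 10.8%, 3 higher and 4 lower. Among the genes called in both *dERR* comparisons, *LysX*, *CG13405*, *mthl8*, *Eip63E*, *Pgm1*, *CG32344*, *Ctr9*, *mthl7* and *CG18265* lie on 3L, as *dERR* does. On 3R, the other arm of chromosome 3, lie *Tpi*, *CG1208*, *CG33093*, *CG17191*, *CG3397*, *alphaTub85E*, *7B2*, *gb* and *2mit*. The remaining genes lie on chromosome 2 or X or were not placed. Of the 11982 genes tested, 2344 lie on 3L and 2974 on 3R. The genes on either side of *dERR* on 3L were called in part. *Uxs*, for UDP-glucuronate decarboxylase, read 7.63, 7.32 and 7.49 in the controls and 6.71, 6.54 and 6.45 in the mutants and fell by 0.91 (adjusted p = 6.92e-04), with -0.14 (adjusted p = 0.813) in the *sima* background. *mthl7*, for another receptor of the Methuselah family, rose by 1.08 in one of its 2 probe sets (adjusted p = 0.00552) and by 1.40 in the *sima* background, at low intensities of 3.58, 3.43 and 3.30 in the controls and 4.37, 4.73 and 4.44 in the mutants. Its other probe set differed by 0.10 (adjusted p = 0.5). *Atg18a*, on the other side, differed by -0.42 (adjusted p = 0.0581). These 3 genes were chosen after their values were seen, by their place next to *dERR*.

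Few differences between the oxygen levels passed the test. The interaction of *dERR* with oxygen was called for 20 probe sets (0.107%). Its standard errors were larger than those of the normoxic differences, as for *Pfk* (0.29 against 0.22). A gene without this call may thus still differ between the oxygen levels. Of the 429 calls in normoxia, 211 were called the same way in hypoxia, where 1157 probe sets were called. *CG10433* rose in normoxia, from 8.26, 8.19 and 8.18 to 9.30, 9.80 and 9.57, a difference of 1.35 (SE 0.20, adjusted p = 4.19e-04), and differed by -0.51 in hypoxia. *Alas* encodes 5-aminolevulinate synthase, the first enzyme of heme synthesis. It read 8.48, 8.45 and 8.47 in the controls and 8.98, 9.22 and 8.67 in the mutants in normoxia, a difference of 0.49 (adjusted p = 0.0443), while in hypoxia the difference was -1.05 (adjusted p = 3.41e-05). The interaction of *dERR* with *sima* in normoxia was called for 221 probe sets (1.18%). *CG4408* fell by 1.49 in *dERR* mutants, from 9.47, 9.51 and 9.39 to 7.87, 7.98 and 8.05, and rose by 4.26 when *dERR* was lost in *sima* mutants.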

How the data were processed

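RNA of whole larvae was hybridized to Affymetrix Drosophila Genome arrays in 26 samples, grouped by genotype and oxygen level from the labels. The authors summarized the probe sets by RMA and deposited a linear intensity for each of them. The version of RMA and the set of arrays normalized jointly, not given in the sources used here, could not be checked. Of 18952 probe sets, 183 controls were left out. The platform annotation lists 13647 for 1 gene, 402 for several and 4903 for none. Of those with 1 gene, 13544 matched RefSeq by gene ID. A supplementary table of the study named 171 more, which were kept out of list counts because that table holds regulated transcripts.

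The log2 of each intensity was taken, and limma 3.58.1 in R 4.3.3 fitted 1 model of 8 groups. In simulated data of this comparison with 18769 probe sets, limma recovered 64 of 94 2-fold and 101 of 106 4-fold changes with 0 false calls. SAM made 106 calls there, with 200 probe sets changed. The simulated noise was independent and normal, with the same spread in all groups. The real spread differed, with a median SD of 0.18 in *dERR* mutants and 0.11 in controls. The simulation therefore does not give the rate of false calls in the real data. Replicates are biological per the study's methods. Named genes were *dERR*, list genes that the study's text names, the 12 largest called rises and falls with separate groups, all members of the glycolysis, lactate and glycerol, and pentose phosphate lists, up to 5 called members of every other list or its smallest p, and the 5 largest called interactions of each kind. Genes called in both *dERR* comparisons, and those that other passages give as examples, were added after their values were seen. The members and lists were chosen with earlier results of these data known. Alternatives changed the arrays fitted, scaling, pseudocount, dim filter, eBayes settings, thresholds, test and replicate block, and left out each replicate.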

Additional observations from a re-analysis of the deposited data

Results flagged for a closer look

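The rule for closer looks was a passed test of the difference between 2 *dERR* comparisons, or a control array in hypoxia far from the other 4. Among the named genes the difference between hypoxia and normoxia passed for *CG7737* (-2.74), *CG33969* (-2.70), *CG3808* (-1.90), *CG10433* (-1.85), *Alas* (-1.54) and *CG4783* (1.88). Apart from *CG10433*, these genes were not called in normoxia.

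The difference between the *sima* background and the background with *sima* intact passed for 23 named probe sets. Rises against *w1118* that were smaller or opposite in the *sima* background were those of *CG4716* (-6.50), *Cyp6a17* (-6.45), *CG15255* (-6.06), *CG14499* (-5.61), *Cyp6a8* (-4.93), *Rala* (-4.38), *Cyp28a5* (-3.43), *RFeSP* (-3.25), *Cyp9c1* (-2.77), *Gpo1* (-2.72), *GstD5* (-2.48), *Cyp9b1* (-2.28), *CG10433* (-2.09), *SREBP* (-0.80) and *mRpS28* (-0.79). *Alas*, not called against *w1118*, differed by -1.06.

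Falls against *w1118* that were smaller or opposite in the *sima* background were those of *CG4408* (5.75), *phr*, the photolyase gene (4.20), *CG14406* (4.15), *Alp7* (3.07), *Nepl20* (2.73) and *Cpr49Ab* (2.50). *Gapdh2*, by its probe set with the larger fall, was the named gene whose fall was larger in the *sima* background, with -1.27.

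In *w1118* in hypoxia, 1 of the 5 arrays stood apart for *Ald1* and for *Gapdh1*, with a gap to the nearest array of 0.897 and 0.849 of the whole range. Of 10 glycolytic genes tested in this way these 2 passed. The genes share the same 5 arrays and are not independent, so this count was not weighed against chance. Relative to the normoxic *w1118* mean, the mean of the 10 genes was 0.98 in hypoxic control replicate 1. In the others it was 0.30 to 0.54.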

How the results depend on the processing

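For the comparison of *dERR* mutants with *w1118* in normoxia, 429 probe sets were called. The 6 arrays alone gave 68 calls, SAM 81, an adjusted p under 0.05 with no fold limit 1722, and a 2-fold limit 285. Leaving out 1 array gave 138 to 481 calls. Centring each array on its median gave 292 higher and 82 lower probe sets in place of 278 and 151, and moved the median of all probe sets from 0.02 to 0.12. Quantile normalization, a pseudocount of 16, a filter on dim probe sets and an intensity trend kept the count within 1.5 times. The replicate numbers did not pair the arrays (correlations of same-numbered arrays of -0.03, -0.27 and -0.13), and with the number as a block 471 probe sets were called.

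The glycolysis list had 0 calls with the 6 arrays alone and 1 to 5 with 1 array left out, against 6. Calls shared with the *sima* background numbered 8 with the 6 arrays alone and 21 to 41 with 1 array left out, against 36. Genes called over all lists fell from 43 to 19 without mutant replicate 2. With 1 array left out, calls numbered 526 to 1821 for *dERR* against *w1118* in hypoxia, 92 to 150 for loss of *dERR* in *sima* mutants, 6 to 28 for the interaction with oxygen and 105 to 239 for that with *sima*. In hypoxia the count moved by more than 1.5 times without mutant replicate 2 (626) or 3 (526) and without control replicate 1 (1821) or 3 (755). In the *sima* background it did so without double-mutant replicate 1 (125) or 3 (92) and without *sima* replicate 2 (102) or 3 (119). The difference of the *dERR* transcript stayed between -0.40 and -0.24, not called in any of these. Why the counts moved was not tested, apart from the fewer arrays. Of 67 called probe sets of named genes, 18 were called under every alternative run for them (at most 13), and 0 reversed. The promoter motif search was not run because no sequence was given. The number of arrays limits the precision, and intensities near the array floor compress differences.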
